A study of Mus musculus with 8 samples.

Results

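Megakaryocyte and platelet genes were followed in blood-forming stem and progenitor cells of the mouse. The set held 36 genes for platelet receptors, granule contents, secretion and cytoskeleton, taken from a list of names. The list was drawn up with earlier results of these data known. Of these, 35 were measured by a probe set with a single gene name, out of 18193 genes on the array, and Serpine2 was not analysed here. Each gene was represented by 1 probe set, that of the highest mean signal. The cells, LSK cells, carried few lineage markers, were Sca1+ and cKit high, and came from C57BL/6 mice. Wild type animals gave 4 arrays. Animals heterozygous for Jak2V617F, a mutation that keeps this cytokine receptor kinase active in human myeloproliferative neoplasms, gave the other 4, and no treatment is named for either genotype. Age, the driver of the mutant allele and whether animals were pooled are not given in the sources used here. The comparison asked how expression in this compartment differed between the genotypes. Jak2 itself read 12.63 in wild type and 12.43 in Jak2V617F arrays, which checks nothing, since a point mutation need not alter a probe set's signal.

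Megakaryocytes are the large marrow cells that shed platelets into the blood. Platelets stick to an injured vessel wall through the GPIb-IX-V receptor, which holds on to von Willebrand factor, and to one another through the integrin made of Itga2b and Itgb3, which binds fibrinogen. They carry granules filled with chemokines, clotting proteins and growth factors that are released on activation. Part of the stem cell pool of the marrow already carries transcripts of such genes and is inclined to the megakaryocyte lineage. In bulk RNA, more cells that hold a transcript and more transcript per cell cannot be told apart.

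Values are log2 intensities, on which a step of 1 is a doubling, and differences are Jak2V617F minus wild type. Median intensity per array lay between 7.06 and 7.15. The stem and progenitor markers Kit (12.65 in wild type and 12.67 in Jak2V617F) and Cd34 (14.04 and 13.93) read high in both genotypes, and the stem cell marker Slamf1 read 9.07 and 9.79, a difference of 0.72 (SE 0.26; limma adjusted p = 0.225), or 0.87 within the male-pattern arrays defined below. The B cell gene Ms4a1 (4.26 and 4.09) and the endothelial gene Cdh5 (4.77 and 5.05) read near background. Other such genes read higher, among them Cd79a of B cells (6.51 and 6.49) and Cd3e of T cells (7.01 and 7.20). Emcn, listed with endothelial genes below, read 10.91 and 10.07. The purity of the sort was not tested. Slamf1 was lowest in wild type arrays 3 and 4 and highest in Jak2V617F array 3, and its part in the platelet gene differences was not tested. Absent transcript was taken to read up to 5.37, the highest value of a Y-linked gene in an array with high Xist, although this level differs between probe sets. High Xist and low Y-linked genes were found in wild type arrays 1 and 2 and Jak2V617F array 3, called female-pattern arrays here. The other 5, wild type arrays 3 and 4 and Jak2V617F arrays 1, 2 and 4, had the male pattern. The labels give no sex, so this is read from the data, and it matters below because wild type arrays of the 2 patterns differed in many platelet genes.

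Clec1b, Gp1bb, Gp5 and Itga2b, all genes of platelet surface receptors, read 1.72, 1.71, 1.57 and 1.38 times the wild type level in mutant cells. F13a1, a gene of a secreted protein, read 1.55 times its wild type level. Among other surface genes Gp9 (0.06), Itgb3 (0.14) and P2rx1 (0.12 on the log2 scale) differed little, though a second Itgb3 probe set gave 0.34. Treml1 differed by 0.40, Selp and P2ry1 by 0.31, Cd9 by 0.23 and Trpc6 by -0.92. The median difference was 0.31 for adhesion receptors, 0.17 for agonist receptors and channels and 0.33 for granule cargo, and differences between these groups were not tested. The largest negative differences, those of Thbs1 and Trpc6, rested on wild type arrays 1 and 2. None of the 35 genes passed limma with Benjamini-Hochberg adjustment over all genes at 0.05 (smallest adjusted p = 0.126), against 0.104% of all genes higher and 0.0605% lower. An unadjusted p under 0.05 was found for 7 of the 35, all higher, or 20.0%, against 11.9% of all genes, and for 0 lower, against 5.23%. A difference above 0 was found for 28 of 35, or 80.0%, against 62.6% of all genes, and the median difference was 0.14 against 0.05. In 5 genes (14.3%) all 4 Jak2V617F arrays lay above all 4 wild type arrays, against 6.82% of all genes, and in 0 below, against 3.33%.

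**Figure D1:**
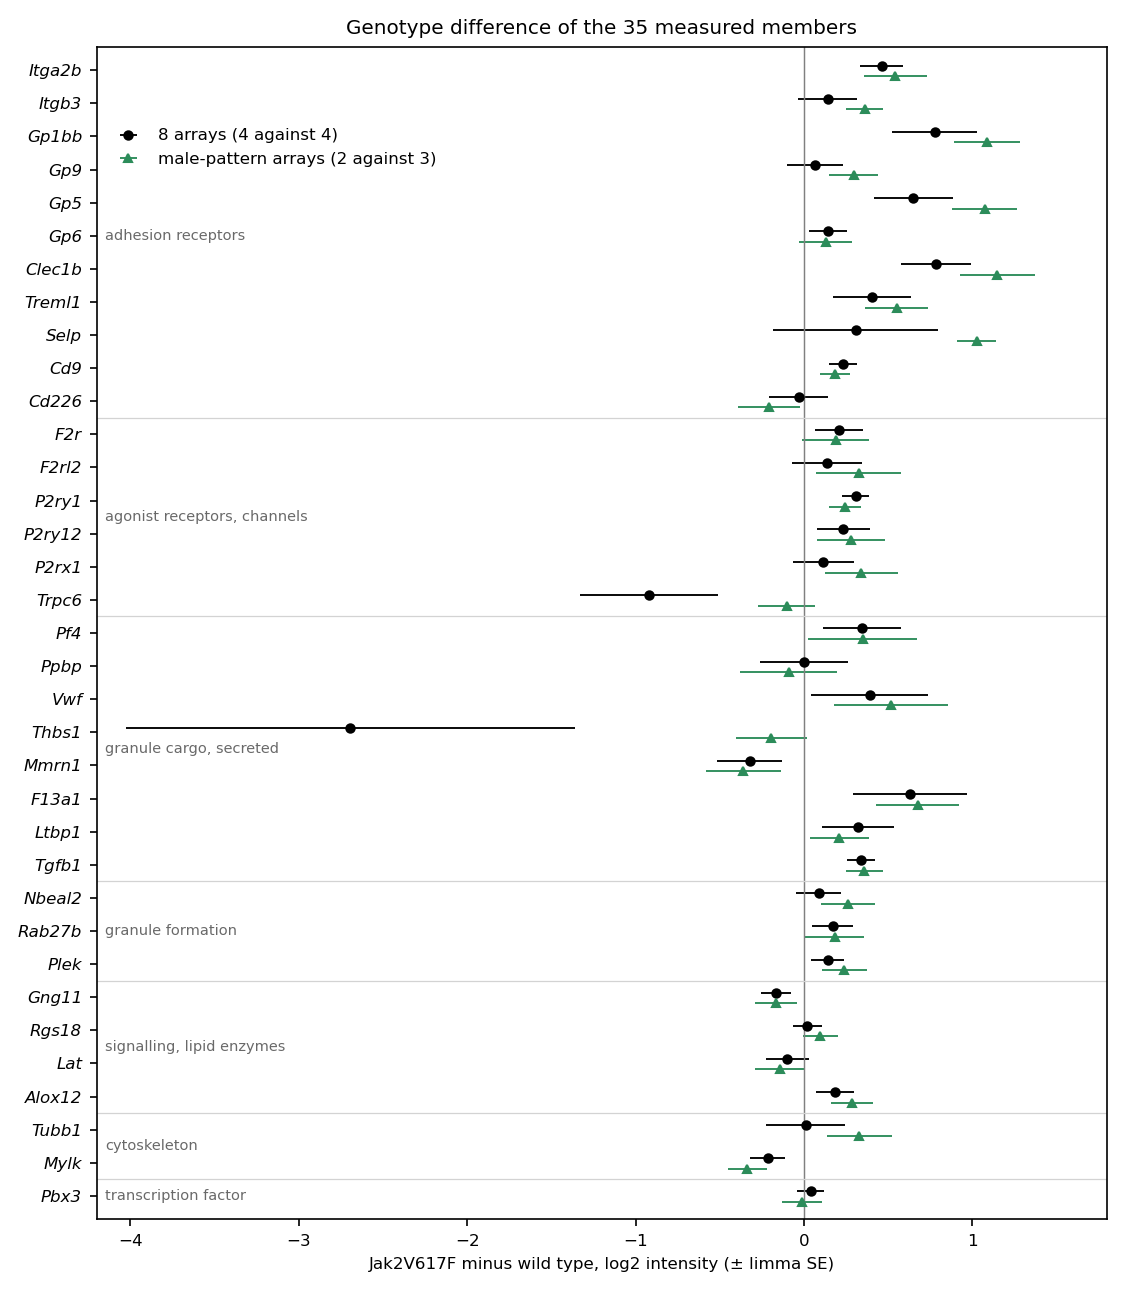
Difference in log2 intensity between Jak2V617F and wild type arrays for each of the 35 measured genes, grouped by role, with limma's standard error as the bar. Black circles use all 8 arrays and green triangles the 5 male-pattern arrays (2 wild type, 3 Jak2V617F), in which Clec1b, Gp1bb, Gp5 and Selp stood between 1.03 and 1.15 and Thbs1 and Trpc6 close to 0.

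Among the 11 adhesion receptors, 10 lay above 0, against 62.6% of all genes. Of the 7 genes with an unadjusted p under 0.05, 5 were in this group of 11, against 11.9% of all genes. Of the GPIb-IX-V subunits in the set, Gp1bb and Gp5 read higher in mutant cells and Gp9 differed little, although the differences between subunits were not tested. Gp1bb, the beta chain of GPIb, read 8.82, 8.76, 8.15 and 7.74 in wild type arrays 1 to 4 and 9.07, 9.28, 9.47 and 8.74 in Jak2V617F arrays 1 to 4. All mutant values but that of array 4 were above every wild type value, and the lowest 2 values belonged to wild type arrays 3 and 4. The difference was 0.78 ± 0.25 (SE; limma adjusted p = 0.202), and a second Gp1bb probe set gave 0.49. Gp5, the subunit cleaved by thrombin, stood at 9.36, 8.78, 8.41 and 8.38 in wild type and 9.62, 9.69, 9.13 and 9.08 in mutant arrays. The genotypes overlapped through wild type array 1 alone, and the difference was 0.65 ± 0.24 (SE; limma adjusted p = 0.227). Gp9, the small subunit needed for the complex to reach the surface, was 10.07, 9.75, 9.51 and 9.26 in wild type and 9.82, 9.75, 9.80 and 9.47 in mutant arrays. Its genotypes overlapped throughout, with the highest value in wild type array 1, and it differed by 0.06 ± 0.17 (SE; limma adjusted p = 0.859). Within the male-pattern arrays the Gp9 difference was 0.30 ± 0.15 (SE).

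The bases before the start sites of these 3 subunits of one receptor are shown. Those of Clec1b and Itga2b are added, from the 5 genes whose arrays did not overlap between genotypes. Each is the 250 bases before a RefSeq transcript start in GRCm38.p6, 5′ to 3′ on the gene's strand: Gp1bb at chr16:18622404-18622653 (minus strand), Gp5 at chr16:30310782-30311031 (minus), Gp9 at chr6:87777820-87778069 (plus), Clec1b at chr6:129397047-129397296 (plus) and Itga2b at chr11:102469884-102470133 (minus). Capitals mark GATAA, the core read by GATA factors, or GGAAG, a core read by Ets factors, on either strand (TTATC or CTTCC on the other), which can share 1 base. The Gp9 window lies inside a longer RefSeq span of that gene.
Gp1bb: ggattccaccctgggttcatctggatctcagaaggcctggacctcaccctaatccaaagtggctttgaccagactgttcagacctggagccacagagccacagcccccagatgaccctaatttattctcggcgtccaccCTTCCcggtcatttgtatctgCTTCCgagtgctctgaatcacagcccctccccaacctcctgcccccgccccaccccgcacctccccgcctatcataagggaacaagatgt
Gp5: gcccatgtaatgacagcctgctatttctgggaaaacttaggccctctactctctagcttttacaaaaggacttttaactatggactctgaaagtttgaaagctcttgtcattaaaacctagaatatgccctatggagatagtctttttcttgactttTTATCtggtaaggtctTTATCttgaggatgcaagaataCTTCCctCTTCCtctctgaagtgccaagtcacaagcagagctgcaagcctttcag
Gp9: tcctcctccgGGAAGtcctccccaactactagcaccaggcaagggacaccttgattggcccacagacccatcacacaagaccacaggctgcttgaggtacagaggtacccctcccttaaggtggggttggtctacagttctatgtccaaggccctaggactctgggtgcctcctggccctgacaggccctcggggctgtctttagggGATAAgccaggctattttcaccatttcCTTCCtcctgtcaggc
Clec1b: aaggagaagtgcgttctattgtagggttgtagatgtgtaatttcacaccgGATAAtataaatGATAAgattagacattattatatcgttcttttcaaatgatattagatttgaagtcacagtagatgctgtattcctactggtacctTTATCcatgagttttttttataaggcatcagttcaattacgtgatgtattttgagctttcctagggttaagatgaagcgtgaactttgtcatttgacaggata
Itga2b: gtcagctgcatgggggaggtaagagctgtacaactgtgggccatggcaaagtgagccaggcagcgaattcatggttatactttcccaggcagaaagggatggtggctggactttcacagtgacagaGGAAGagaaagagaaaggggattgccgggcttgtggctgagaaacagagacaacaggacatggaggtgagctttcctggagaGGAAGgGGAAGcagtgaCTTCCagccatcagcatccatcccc
These letters held 2 GGAAG and 0 GATAA matches for Gp1bb, 2 of each for Gp5, and 2 GGAAG and 1 GATAA for Gp9. Clec1b had 3 GATAA and 0 GGAAG matches, and Itga2b had 4 GGAAG and 0 GATAA. Cd9, P2ry1 and Tgfb1, whose arrays also did not overlap, are not shown. They had 2, 1 and 1 GGAAG matches and 0 GATAA. The RefSeq table matched 27 of the measured genes, with 29 promoters. GATAA was in 10 of the 29 (34.5%) against 22.6% of the 32851 promoters in the table, and GGAAG in 22 (75.9%) against 64.1%. Both were in 6 (20.7%) against 13.2%. A match describes the letters only.

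Clec1b, which encodes the podoplanin receptor CLEC-2, was read at 6.37, 6.43, 5.75 and 6.07 in wild type and 7.07, 7.42, 6.59 and 6.69 in mutant arrays. The groups did not overlap, and Jak2V617F arrays 1 and 2 were highest. It differed by 0.78 ± 0.21 (SE; limma adjusted p = 0.146), the largest positive difference of the set, from a low wild type level. Itga2b, the CD41 chain of the fibrinogen receptor and the surface mark of the megakaryocyte lineage, was 10.34, 10.30, 10.05 and 10.29 in wild type and 10.90, 10.87, 10.69 and 10.37 in mutant arrays. The groups did not overlap here either, but Jak2V617F array 4 cleared the highest wild type array narrowly. The difference was 0.46 ± 0.13 (SE; limma adjusted p = 0.155). Its partner chain Itgb3 read 10.82, 11.15, 10.50 and 10.31 in wild type and 10.82, 10.81, 11.05 and 10.66 in mutant arrays. The ranges overlapped, with the highest value in wild type array 2, and the difference was 0.14 ± 0.17 (SE; limma adjusted p = 0.687). Leaving out 1 array moved the Itgb3 difference between 0.01, without wild type array 4, and 0.29, without wild type array 2. A second Itgb3 probe set differed by 0.34 ± 0.081 (SE; limma adjusted p over all probe sets = 0.108).

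Cd9, a tetraspanin of platelets and stem cells, was 11.62, 11.32, 11.50 and 11.46 in wild type and 11.70, 11.66, 11.83 and 11.64 in mutant arrays. Every mutant value was above every wild type value, by a small step of 0.23 ± 0.084 (SE; limma adjusted p = 0.227). Treml1, a receptor stored in alpha granules, averaged 8.33 ± 0.36 in wild type and 8.74 ± 0.42 in Jak2V617F arrays (SD, n = 4 each), with overlapping arrays and a difference of 0.40 ± 0.23 (SE), or 0.24 without Jak2V617F array 3. The collagen receptor gene Gp6 lay between 3.93 and 4.50 and the adhesion gene Cd226 between 3.49 and 4.43 over all 8 arrays. Both were below the level taken for absent transcript in every array, so their differences are not read further.

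**Figure D2:**
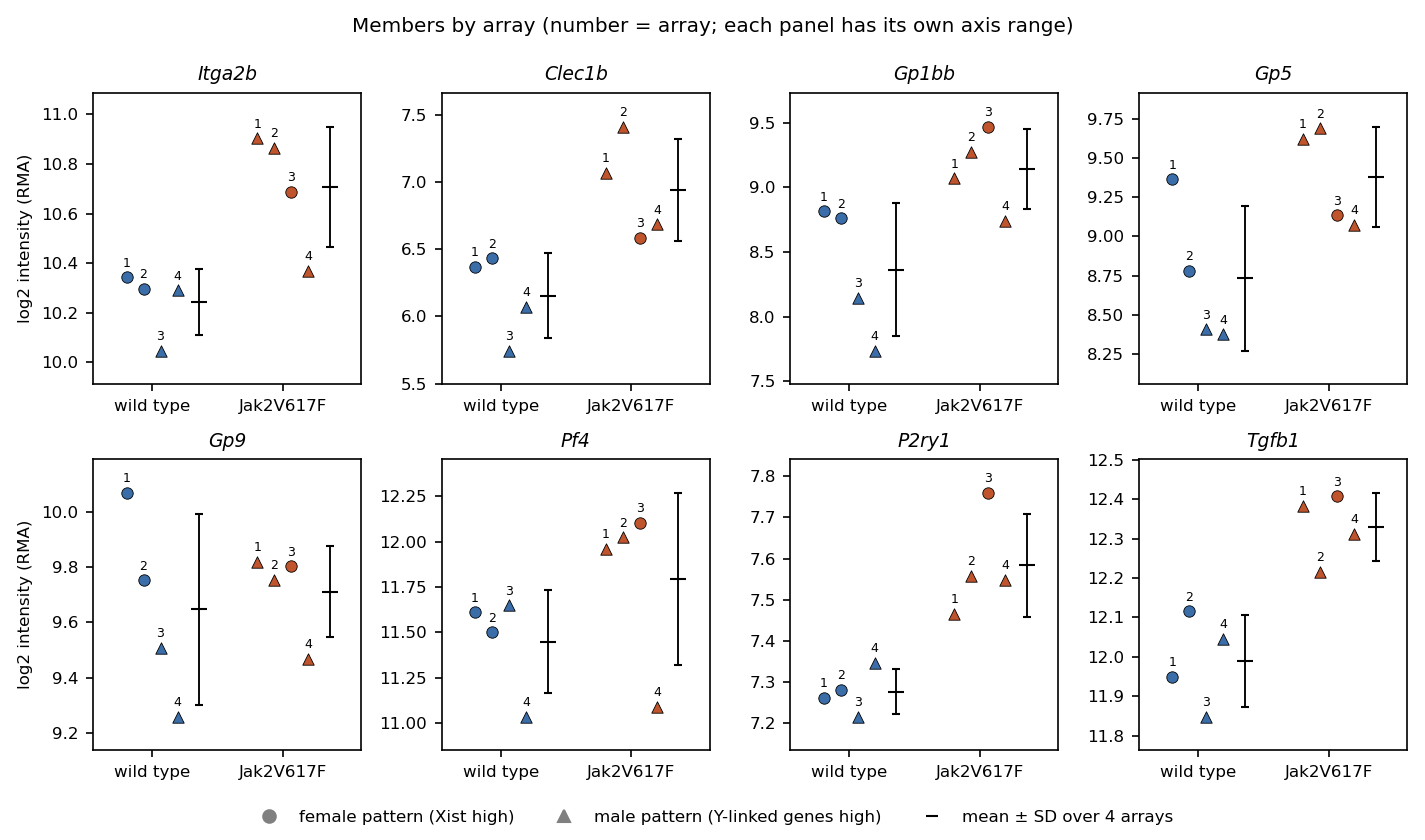
Log2 intensity of 8 genes in each array, with wild type in blue and Jak2V617F in orange, numbers giving the array, circles the female pattern and triangles the male pattern, and bars the mean ± SD over 4 arrays. Itga2b, Clec1b, P2ry1 and Tgfb1 did not overlap between genotypes, whereas Gp9 and Pf4 overlapped and Gp1bb and Gp5 overlapped at their edges.

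Among receptors for soluble agonists, 5 of 6 lay above 0, P2ry12 near background among them, against 62.6% of all genes. The median was 0.17. P2ry1, the ADP receptor that starts platelet shape change, read 7.26, 7.28, 7.22 and 7.35 in wild type and 7.47, 7.56, 7.76 and 7.55 in mutant arrays. The wild type arrays were tightly grouped and all mutant arrays lay above them, with a difference of 0.31 ± 0.079 (SE; limma adjusted p = 0.138). P2ry12, the ADP receptor targeted by antiplatelet drugs, lay between 4.66 and 5.37 over all arrays, at the level taken for absent transcript. The ATP-gated channel gene P2rx1 averaged 9.74 ± 0.29 in wild type and 9.85 ± 0.31 in Jak2V617F arrays (SD, n = 4 each), a difference of 0.12 ± 0.18 (SE), and a second probe set differed by -0.17. The thrombin receptor gene F2r averaged 12.09 ± 0.18 in wild type and 12.30 ± 0.26 in Jak2V617F arrays (SD, n = 4 each), a difference of 0.21 ± 0.14 (SE), and F2rl2, the thrombin receptor PAR3, differed by 0.14 ± 0.21 (SE). In both the arrays of the genotypes overlapped, and the F2r difference was 0.14 without wild type array 4 and 0.34 without Jak2V617F array 4.

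Granule and secreted proteins were split. Of 8 measured genes 6 lay above 0, Ppbp by only 0.0002, against 62.6% of all genes. The median was 0.33, but the members ranged from -2.69 to 0.63. Pf4, the chemokine platelet factor 4, was 11.61, 11.50, 11.65 and 11.04 in wild type and 11.96, 12.02, 12.10 and 11.09 in mutant arrays. Jak2V617F arrays 1 to 3 were above every wild type array, and array 4 was near the lowest wild type value. The difference was 0.35 ± 0.23 (SE; limma adjusted p = 0.452), which was 0.58 without Jak2V617F array 4 and 0.21 without wild type array 4. Ppbp, the neighbouring platelet chemokine gene, averaged 7.76 ± 0.31 in wild type and 7.76 ± 0.55 in Jak2V617F arrays (SD, n = 4 each). The means met, with an SE of 0.26 on their difference, and single arrays spread from 7.24 to 8.36. Vwf, which encodes the multimeric ligand of GPIb-IX-V, stood at 9.59, 9.18, 8.46 and 8.84 in wild type and 9.31, 9.68, 10.13 and 8.50 in mutant arrays. Values overlapped, with the highest in Jak2V617F array 3, and the difference was 0.39 ± 0.35 (SE; limma adjusted p = 0.568). The Vwf difference was 0.15 without Jak2V617F array 3, 0.20 without wild type array 3 and 0.69 without Jak2V617F array 4.

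Tgfb1, a growth factor that platelets store in bulk and many other cells also make, was 11.95, 12.12, 11.85 and 12.05 in wild type and 12.38, 12.22, 12.41 and 12.31 in mutant arrays. All mutant arrays lay above all wild type arrays, by 0.34 ± 0.082 (SE), and its limma adjusted p of 0.126 was the smallest of the set. A second Tgfb1 probe set differed by -0.04. F13a1, the clotting transglutaminase subunit found in platelets and in monocytes and macrophages, read 11.96, 11.99, 11.34 and 11.20 in wild type and 11.44, 12.20, 13.17 and 12.19 in mutant arrays. Jak2V617F array 3 was highest by about a doubling over array 2, and array 1 lay within the wild type range. The difference was 0.63 ± 0.34 (SE; limma adjusted p = 0.365), and without Jak2V617F array 3 it was 0.32. Ltbp1, which binds latent TGF-beta, differed by 0.32 ± 0.21 (SE), and Mmrn1, the alpha granule carrier of factor V, by -0.32 ± 0.19 (SE), both with overlapping arrays. Without Jak2V617F array 3 these were 0.15 and -0.21, Ltbp1 was 0.48 without Jak2V617F array 1, and Mmrn1 was -0.21 without wild type array 3.

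Genes for granule formation and for signalling inside the platelet showed small differences. Nbeal2, needed to form alpha granules, differed by 0.09, the secretion GTPase gene Rab27b by 0.17 and the kinase C substrate gene Plek by 0.14, all with an SE between 0.096 and 0.13. Other probe sets of Rab27b gave 0.45 and 0.23 and those of Plek 0.18 and 0.23, while the second Nbeal2 probe set gave -0.12. The G protein gene Gng11 differed by -0.17, the regulator of G protein signalling gene Rgs18 by 0.02, the adaptor gene Lat by -0.10 and the lipoxygenase gene Alox12 by 0.18. Tubb1, the beta tubulin of the platelet's marginal band, averaged 7.22 ± 0.51 in wild type and 7.23 ± 0.21 in Jak2V617F arrays (SD, n = 4 each). The myosin light chain kinase gene Mylk differed by -0.22 ± 0.10 (SE) and the homeobox factor gene Pbx3 by 0.04. In each of these genes the arrays of the 2 genotypes overlapped.

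Wild type arrays lay in pairs in several genes. Wild type arrays 1 and 2 both lay above arrays 3 and 4 in 16 of 35 genes (45.7%), against 22.6% of all genes, and below them in 4 (11.4%), against 18.0%. Selp, the P-selectin that granules carry to the platelet surface, showed this most plainly among the adhesion receptors. It read 12.22, 12.36, 10.31 and 10.47 in wild type and 11.29, 11.55, 12.34 and 11.42 in mutant arrays. The 3 female-pattern arrays of both genotypes lay together between 12.22 and 12.36, the male-pattern wild type arrays at 10.31 and 10.47, and the male-pattern mutant arrays between them and the female ones, from 11.29 to 11.55. Over all 8 arrays the difference was 0.31 ± 0.49 (SE; limma adjusted p = 0.76). Within the male-pattern arrays it was 1.03 ± 0.12 (SE; limma adjusted p = 0.065), and other Selp probe sets gave 1.06 and 0.93. Among female-pattern arrays the 1 mutant array stood 0.05 above the mean of the 2 wild type arrays. The test of the difference between the patterns, limma's interaction of genotype and pattern (male minus female), gave 0.97 with an adjusted p of 0.203. An unadjusted interaction p under 0.05 was found for 5 genes, Clec1b, Gp5, Selp, Thbs1 and Trpc6 (14.3%), against 10.6% of all genes.

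Thbs1, which encodes the adhesive glycoprotein thrombospondin-1, read 11.06, 10.37, 5.26 and 5.10 in wild type and 4.98, 4.62, 6.06 and 5.34 in mutant arrays. Wild type arrays 1 and 2 stood apart from all others, which lay around the level taken for absent transcript. The difference of -2.69 ± 1.33 (SE; limma adjusted p = 0.333) was -0.19 within male-pattern arrays and 0.08 without wild type arrays 1 and 2. Arrays at that level have no order, so the size of the Thbs1 difference is that of wild type arrays 1 and 2 over it, and without wild type array 1 alone it was -1.66. The second Thbs1 probe set showed the same pair, with a difference of -0.98. Trpc6, a calcium-permeable channel gene, was 11.50, 11.40, 9.75 and 9.79 in wild type and 9.91, 9.74, 9.74 and 9.36 in mutant arrays. The same wild type arrays stood apart, while the male-pattern wild type arrays lay within the mutant range. Its difference of -0.92 ± 0.41 (SE; limma adjusted p = 0.292) was -0.10 within male-pattern arrays and -0.08 without wild type arrays 1 and 2. In both genes the female-pattern mutant array read low, at 6.06 for Thbs1 and 9.74 for Trpc6. With 1 female-pattern mutant array, sex and other features of these wild type mice cannot be told apart.

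**Figure D3:**
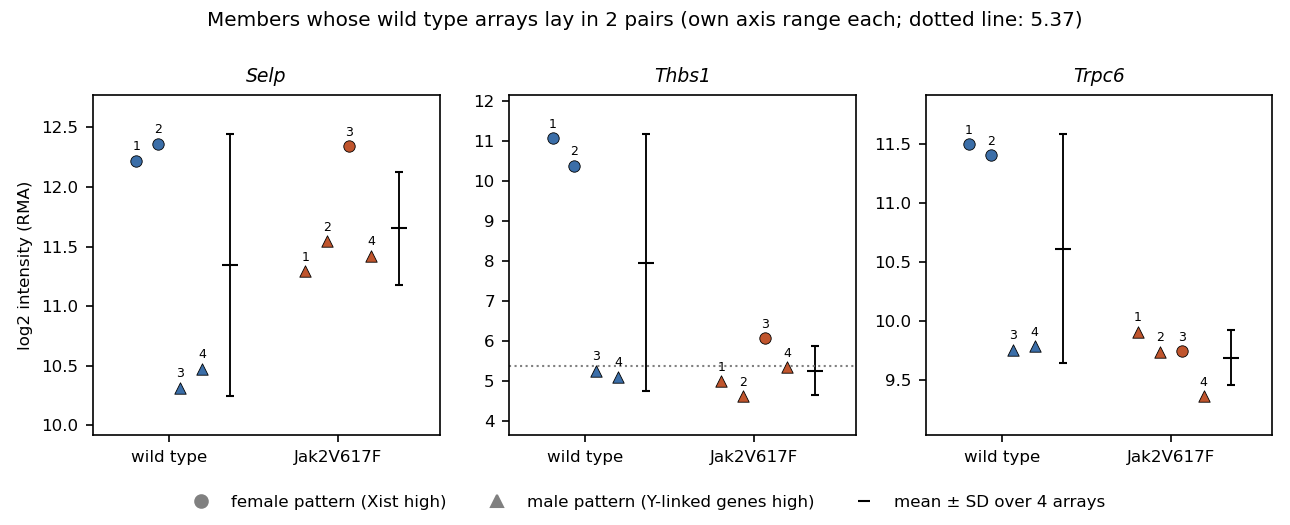
Log2 intensity of Selp, Thbs1 and Trpc6 in each array, with wild type in blue and Jak2V617F in orange, numbers giving the array, circles the female pattern, triangles the male pattern and bars the mean ± SD over 4 arrays. Selp was high in all 3 female-pattern arrays, whereas Thbs1 and Trpc6 were high in wild type arrays 1 and 2 alone, and the dotted line at 5.37 in the Thbs1 panel marks the level taken for absent transcript.

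The adhesion receptors were also compared within the 5 male-pattern arrays. Their median difference there was 0.54, with 10 of 11 above 0, and over all 35 genes the median was 0.26 with 26 above 0 (74.3%), against 0.06 and 61.2% for all genes. Gp1bb differed by 1.09 ± 0.19, Gp5 by 1.07 ± 0.19, Clec1b by 1.15 ± 0.22 and Treml1 by 0.55 ± 0.19 (SE). Differences of 0.5 or more were found in 8 genes (22.9%), against 3.51% of all genes, and over all 8 arrays in 4 (11.4%), against 2.32%. Differences of -0.5 or less were found in 0 genes, against 2.45% of all genes. Over all 8 arrays they were found in 2, Thbs1 and Trpc6 (5.71%), against 1.72%. All mutant arrays lay above both wild type arrays in 13 genes (37.1%), against 24.4% of all genes, and below in 1, Mylk (2.86%), against 14.2%. No gene of the set passed limma over all genes within these arrays (smallest adjusted p = 0.065, for Selp), against 0.0715% of all genes higher and 0.0495% lower. An unadjusted p under 0.05 was found for 10 higher (28.6%), against 11.4% of all genes, and 1 lower, Mylk (2.86%), against 6.06%. In the female-pattern arrays the mutant array stood above the mean of the 2 wild type arrays in 24 of 35 genes (68.6%). For all genes the share was 59.1%. The median difference there was 0.06, against 0.05 for all genes, and 0.18 for the adhesion receptors. Gp5 differed by 0.06 and Clec1b by 0.18 in these arrays, and Gp1bb by 0.68 and Treml1 by 0.58. With sex pattern as a covariate over all 8 arrays, Gp1bb differed by 0.94 ± 0.15 (SE; limma adjusted p = 0.0552), and 0 of 35 passed, against 0.214% of all genes higher and 0.115% lower. At an unadjusted p under 0.05 there were 12 higher (34.3%), against 12.5% of all genes, and 3 lower (Mmrn1, Thbs1 and Trpc6, 8.57%), against 5.47%. In that fit 28 genes (80.0%) lay above 0, against 62.9%, 7 (20.0%) at 0.5 or more, against 2.65%, and 2 (5.71%) at -0.5 or less, against 1.83%. Sex pattern itself, at equal genotype, was called for 0 of 35 genes, against 0.0605% of all genes.

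Without wild type arrays 1 and 2, 27 genes (77.1%) lay above 0, against 62.3% of all genes, with a median of 0.30. Again 0 passed limma over all genes, against 0.0385% higher and 0.055% lower. An unadjusted p under 0.05 was found for 12 higher (34.3%), Selp, Treml1 and Gp9 among them, against 11.2%, and for 0 lower, against 5.59%. Differences of 0.5 or more were found in 8 (22.9%), against 3.48%, and of -0.5 or less in 0, against 2.28%. This omission was chosen after seeing the data.

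**Figure D4:**
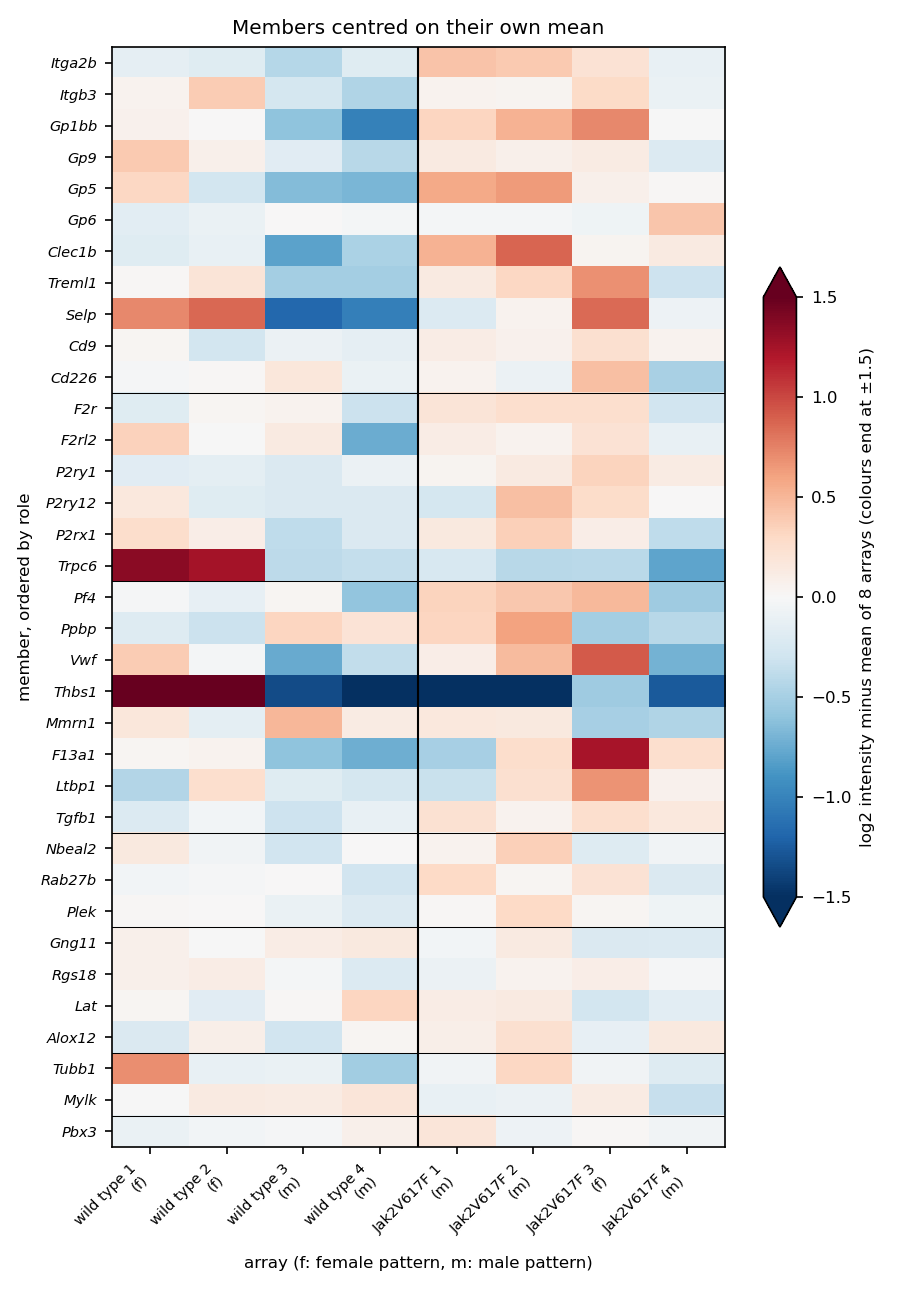
Each of the 35 genes in each array as log2 intensity minus the gene's mean over 8 arrays, in rows ordered by role, with red above and blue below the mean and colours ending at 1.5. Wild type arrays 3 and 4 held the lowest value of 10 and 12 genes, and Jak2V617F arrays 2 and 3 the highest value of 9 and 10.

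The arrays themselves differed within genotype. Wild type arrays 3 and 4 held the lowest value of 10 and 12 of the 35 genes, and Jak2V617F arrays 2 and 3 the highest value of 9 and 10. Jak2V617F array 4 read lowest of the mutant arrays in Itga2b, Pf4, Vwf and Gp1bb. Its median deviation from the gene means was -0.11, against 0.10 to 0.15 in the other mutant arrays, -0.18 and -0.22 in wild type arrays 3 and 4, and 0.03 and -0.01 in wild type arrays 1 and 2.

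Further platelet genes outside the set lay on both sides of 0. Of 76 listed, 68 were measured, 37 of them above 0 with a median of 0.0084, against 62.6% and a median of 0.05 for all genes. At an unadjusted p under 0.05, 10 of the 68 were higher, against 11.9% of all genes, and 6 lower, against 5.23%, with 0 passing limma over all genes. The smallest p belonged to the scavenger receptor gene Cd36 (0.48 ± 0.12, SE), near background in wild type, the G protein gene Gnaq (-0.35 ± 0.089) and the kinase gene Btk (0.27 ± 0.089), with limma adjusted p of 0.137, 0.138 and 0.205. Of 16 transcription factors of the lineage, 7 lay above 0, with a median of -0.01. Gata1, which drives red cell and megakaryocyte genes, differed by 0.50 ± 0.21 (SE), the corepressor gene Cbfa2t3 by -0.33 ± 0.099 and the Ets factor gene Erg by 0.16 ± 0.082, with limma adjusted p of 0.271, 0.188 and 0.354. With probe sets averaged, Cbfa2t3 was -0.05, Erg 0.04, Cd36 0.17 and Gnaq -0.17, while Gata1 and Btk stayed as given.

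Markers of some other blood cells also read higher in mutant arrays. As log2 of the summed intensity of each list, macrophage and dendritic cell genes (19 measured) read 14.00 to 14.65 in wild type and 14.75 to 15.21 in mutant arrays, and 17 lay above 0 with a median of 0.55. Granulocyte and monocyte genes (14 measured) read 16.59 to 16.97 and 17.00 to 17.21, with 12 above 0 and a median of 0.41, and erythroid genes (18 measured) 15.60 to 15.95 and 15.80 to 16.19, with 17 above 0 and a median of 0.54. Endothelial genes (16 measured) read 14.12 to 14.41 and 14.13 to 14.39, lymphocyte genes (14 measured) 14.20 to 14.29 and 14.20 to 14.47, and stem cell genes (18 measured) 16.13 to 16.24 and 15.98 to 16.23, with 10, 10 and 7 above 0, against 62.6% of all genes. Their medians were 0.19, 0.06 and -0.06. At an unadjusted limma p under 0.05, 9 macrophage and dendritic cell, 4 granulocyte and monocyte and 5 erythroid genes were higher, and 1, 0 and 0 lower. In the endothelial, lymphocyte and stem cell lists 7, 3 and 1 were higher, and 1, 1 and 3 lower. The shares of all genes were 11.9% higher and 5.23% lower. The defining genes Cdh5, Sox17, Ms4a1 and Mertk and the alpha globin entry Hba-a1 were near background in both genotypes. Another alpha globin entry, Hba-a2, read 13.20 in wild type and 13.22 in Jak2V617F arrays. In each list the 3 genes with the smallest p were Cd163, H2-Ab1 and Cd68 (0.65, 0.50 and 0.44), Mmp8, Ltf and Lcn2 (1.35, 1.41 and 1.09), Tfrc, Hbb-b2 and Slc4a1 (0.75, 1.67 and 2.32), Emcn, Nos3 and Stab2 (-0.84, 0.47 and 0.31), Cd3d, Cd4 and Cd8a (0.52, -0.45 and 0.25), and Hoxa10, Mecom and Hoxa9 (-0.46, -0.34 and -0.28). None passed limma over all genes in the 8 arrays, though Emcn passed with sex pattern as a covariate (-0.76) and Ltf within male-pattern arrays (1.68), and none of these 6 lists shares a gene with the platelet set. The arrays of the genotypes overlapped in Mmp8, Ltf, Lcn2, Hbb-b2, Cd3d and Hoxa9. For Mmp8, Ltf, Lcn2 and Hbb-b2, Jak2V617F array 3 lay within the wild type range. The part of these other blood cells in the platelet gene differences was not tested.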

How the data were processed

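Sorted LSK cells gave RNA for 8 arrays (Affymetrix Mouse Expression Array 430 2.0) after linear amplification, per the labels' protocols. Per the submitters' processing notes, the authors used RMA, affy and R 2.11.0, and the deposited values are log2 intensities of probe sets. RMA equalises array distributions, so a shift of most transcripts would not be seen. Chip definition and filters are not given in the sources used here. The table held 45101 probe sets, of which 64 controls were left out, and 34945 had 1 gene symbol in the platform annotation.

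Genotypes come from the labels, 4 arrays each. Nothing in the labels says more of the mice than replicate numbers, so p-values measure the spread between these samples. limma 3.58.1 (lmFit and eBayes, R 4.3.3) tested all 18193 genes, two-sided, without covariates. The member genes, lists and rules were chosen with earlier results of these data known. By rule, values per array were given for genes with an unadjusted p under 0.05, a difference of 0.5 or more, or a defining role. From each other list the 3 smallest p were named. Selp was added after its values were seen. The sex pattern was read from Xist and the Y-linked genes Eif2s3y, Uty and Kdm5d. Scripts were tested on simulated data. The number of arrays limits precision. Promoter letters come from RefSeq, GRCm38.p6.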

Additional observations from a re-analysis of the deposited data

Results flagged for a closer look

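In groups of 4 arrays, 1 array lay far from the other 3 in 5 of the 70 gene and genotype groups checked, and chance alone gives about 1 in 20. Jak2V617F array 4 was the distant one in 3 of them, low for Pf4 (11.09) and for F2r (11.91) and high for Gp6 (4.50), which is near background. Wild type array 1 was high for P2ry12 (5.07), also near background, and wild type array 4 was low for Rab27b (10.59).

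Thbs1 stood out by its interaction of genotype and sex pattern, which restates that wild type arrays 1 and 2 lay apart from all others. The interaction of genotype and pattern was 4.46 (male minus female pattern; limma adjusted p = 0.0291, interaction added after seeing the data), from -4.65 in female-pattern arrays to -0.19 in male-pattern arrays. It rests on 1 female-pattern mutant array at 6.06, and the male-pattern arrays are at the level taken for absent transcript, so it does not establish a difference between sexes. It was 1 of 35 genes called, or 2.86%, against 0.0495% of all genes.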

How the results depend on the processing

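With limma, 0 of 35 platelet genes were called under each alternative, thresholds of 0.1 and 0.01 included. The median change of the members lay between 0.10 and 0.30, and the count of members above 0 between 23 (dim genes left out) and 29, or 42 of 58 probe sets. The median was 0.30 without wild type arrays 1 and 2, a choice made after seeing the data, and 0.10 to 0.20 with 1 array left out. The count of genes called among all genes, 30 in the report, was 110 over all probe sets, 49 with probe sets averaged, 47 after median centring, 60 with sex as a covariate, 75 with a trended robust prior, 17 without wild type arrays 1 and 2, 199 at a threshold of 0.1 and 8 at 0.01. With 1 array left out it was 13 to 40. It was 13 and 16 without the second or the third wild type array, and 19, 16 and 14 without Jak2V617F arrays 1, 2 and 4. With the replicate number as a block the count of genes called was 8 and no platelet gene was called. Same-numbered arrays did not deviate together (correlations of -0.02, -0.22, -0.06 and 0.10). The labels do not say whether the numbers pair mice, and correlations over so few arrays cannot decide it.

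Differences that changed sign were not called, and the cause was not tested. Ppbp was -0.090 within male-pattern arrays, -0.15 with sex as a covariate, -0.26 without wild type arrays 1 and 2, and -0.20 to 0.17 with 1 array left out. Leaving out 1 array gave -0.066 to 0.20 for Gp9, -0.035 to 0.65 for Selp, -0.19 to 0.13 for Cd226, -0.090 to 0.28 for F2rl2, -0.017 to 0.17 for Nbeal2, -0.043 to 0.062 for Rgs18, -0.16 to 0.24 for Tubb1 and -0.014 to 0.076 for Pbx3. Tubb1 was -0.0079 with array weights. Pbx3 was -0.0098 in male-pattern arrays and -0.0096 without wild type arrays 1 and 2. Cd226 was 0.012 after median centring and 0.029 with sex as a covariate. With probe sets averaged P2rx1 was -0.027, Nbeal2 -0.017 and Rgs18 -0.029. Thbs1 was 0.075 without wild type arrays 1 and 2. Of other named genes, Tfrc, Mmp8, Ltf, Emcn and Nos3 passed in 9 fits together. Signal near background limits what can be read for Gp6, Cd226 and P2ry12.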
